A study of Tachysurus vachellii and Tachysurus fulvidraco x Tachysurus vachelli and Tachysurus fulvidraco with 9 samples.

Results

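Plasma carriers of heme and iron, the enzymes that start heme synthesis, and the alpha chain of hemoglobin were followed in catfish liver RNA. They were found among 57710 assembled genes, here called rows, by gene symbol (hpx, tf, alas2 and hba) or by a protein description naming 5-aminolevulinate synthase, hemopexin or warm temperature acclimation protein. The search gave 8 rows, 5 by symbol and 3 by description. Both rows with the symbol hpx are described as warm temperature acclimation protein of 65 kDa, the first as protein 65-1 and the second as protein 65-2, and a row without a symbol is also described as protein 65-2. The other rows are tf, alas2, hba, alas1, and an unnamed row described, like alas1, as the nonspecific form of the synthase. The descriptions name a protein of the channel catfish Ictalurus punctatus for all but tf, whose description names the yellow catfish itself.

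Messenger RNA was taken by its poly(A) tail from juvenile livers and sequenced in 9 libraries, 3 from each of 3 lines. The lines were the darkbarbel catfish P. vachelli, the yellow catfish P. fulvidraco, and Huangyou-1, a hybrid with P. fulvidraco as the mother and P. vachelli as the father. All 3 lines were bred by artificial fertilization after hormone injection of the parents and were fed alike, but each line had its own aquaria, so line and rearing cannot be told apart. Nothing in the labels tells if a library is 1 fish or a pool, so p-values cover only the spread among the libraries, and that spread may be technical.

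Heme is the iron-bearing ring that binds oxygen in hemoglobin, and free heme and free iron are toxic. Liver cells secrete hemopexin, which captures free heme in plasma, and transferrin, which carries iron between tissues. Teleost fish have paralogous hemopexin-like proteins known as Wap65-1 and Wap65-2, named for proteins that increase in the plasma of goldfish and carp in warm water. Heme synthesis starts with 5-aminolevulinate synthase, whose form ALAS1 works in most cells and whose form ALAS2 belongs to developing red blood cells. Fish erythrocytes keep their nucleus and RNA, so the blood held in a liver can add globin transcripts to the sample.

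Levels are given in TPM, transcripts relative to the library total as the authors computed them, which take transcript length into account and so allow levels of different rows to be set side by side. Read depth cannot be had from TPM and is unknown. Levels are followed by their SD (n = 3 libraries) after the sign ±. Differences are followed by a standard error, which limma gives for log2(TPM + 1), a scale that understates the change of rows with low values. A difference passed where its p from limma, adjusted by the Benjamini-Hochberg method over all rows or symbols tested, was under 0.05. The mid-parent is the mean of the parents' log2 levels unless a linear one is named. Libraries P. fulvidraco 1 and 2 stood apart from the others in vitellogenin, the egg yolk precursor, which took 5.08% and 1.88% of their TPM against 0.00549% in P. fulvidraco 3 and at most 0.000129% elsewhere. Calls that change without these libraries are given beside the results for the 8 rows and for the other genes named. Leaving both out keeps 1 P. fulvidraco library, which the fit takes to vary like the other groups. The liver label was checked against 19 measured hepatocyte markers, whose summed TPM ran from 50026 to 57853 over the 9 libraries, and none of the 19 was listed at 0 in all of them. No symbol matched alb, apoa2 or serpina1, also on that list.

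The hemopexin-like row for protein 65-1 was highest in the hybrid, above every library of both parents. Heme binding by its product was not tested. Transferrin was also highest in the hybrid, by a smaller margin, and whether it passed against P. fulvidraco depended on the fit. The other hemopexin row, protein 65-2, was lower in the hybrid and P. fulvidraco than in P. vachelli. Alpha-globin stood at a like level in the hybrid and P. vachelli and lower in P. fulvidraco, while alas2 and alas1 were lowest in P. vachelli. Both alpha-globin calls against P. fulvidraco, and the hybrid call of protein 65-1 against it, were lost without P. fulvidraco 1 and 2. All 8 rows passed the filter of 1 TPM in at least 3 libraries, the unnamed synthase row through P. vachelli and the hybrid alone. That row is listed at 0 in P. fulvidraco and is left out of the counts that follow, which cover the 7 other rows. Between the parents all 7 passed the test, 2 higher and 5 lower in P. vachelli, where 54.4% of all 51225 rows tested passed. In the hybrid against P. vachelli 4 rows were higher and 1 lower, with 30.0% of all rows passing. Against P. fulvidraco 2 were higher and 1 lower, with 21.8% passing, and against the mid-parent 2 were higher and 1 lower, with 8.51% passing. Without P. fulvidraco 1 and 2, 5 of the 7 passed between the parents, where 36.4% of all rows did, and 6 in the hybrid against P. vachelli, with 29.4% of all rows. In that fit 1 passed against P. fulvidraco and 1 against the mid-parent, with 6.20% and 4.73% of all rows passing.

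**Figure D1:**
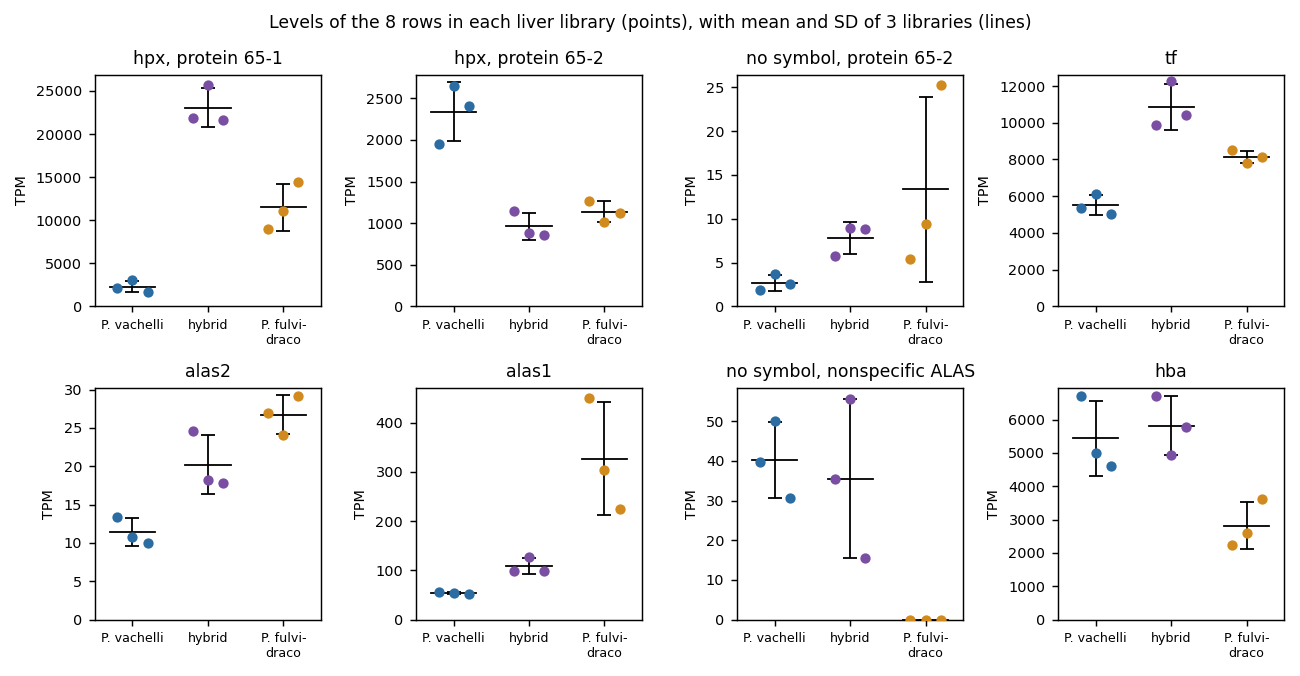
Level in TPM (y axis, from 0, its own scale in each panel) of the 8 rows in each of the 9 libraries, with points for libraries and lines for the mean and SD of 3 libraries. Protein 65-1 sits between 21623 and 25697 TPM in the hybrid and between 1717 and 3046 TPM in P. vachelli, and the unnamed synthase row is listed at 0 in all 3 P. fulvidraco libraries.

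Since an assembled row may hold the form of a single species, the rows of a symbol were also summed, giving 5 symbols for these genes. Only hpx had 2 rows, described as different paralogs, and tf, alas1, alas2 and hba had 1 row each. The sums therefore cannot address forms of a single species. Rows of like description under another symbol or none were not in them. With those rows added, alas1 no longer passed in the hybrid against P. vachelli (limma, adjusted p = 0.109). Nor did tf pass in the hybrid against P. fulvidraco (limma, adjusted p = 0.0709). The other calls of alas1 and tf were kept. Between the parents all 5 passed, 1 higher and 4 lower in P. vachelli, where 48.6% of 10815 symbols tested passed. In the hybrid 4 were higher than in P. vachelli and 0 lower, with 30.5% of all symbols passing. Against P. fulvidraco 3 symbols were higher and 1 lower, with 24.6% passing, and against the mid-parent 2 were higher and 0 lower, with 10.8% passing. The 2 above the mid-parent were hpx and tf. Without P. fulvidraco 1 and 2 the counts were 4, 4, 1 and 2 in the same order of comparisons, with 33.1%, 30.3%, 8.91% and 5.59% of all symbols passing. Over all rows the median log2 difference was -0.01 between parental lines, 0.00 in the hybrid against P. vachelli, 0.02 against P. fulvidraco and 0.04 against the mid-parent.

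Protein 65-1 is the hemopexin-like row TRINITY_DN22644_c0_g1. Its level was 2137, 3046 and 1717 TPM in the P. vachelli libraries, 21868, 25697 and 21623 TPM in the hybrid, and 9004, 11017 and 14455 TPM in P. fulvidraco. The 3 groups did not overlap, and the lowest hybrid library lay above the highest P. fulvidraco library. In rank among all rows of a library it went from 60, 38 and 82 in P. vachelli to 9, 7 and 3 in P. fulvidraco and 4, 4 and 3 in the hybrid, where it took 2.16% to 2.57% of the TPM. The group means were 2300.1 ± 679 TPM in P. vachelli, 23062 ± 2285 TPM in hybrid livers and 11492 ± 2756 TPM in P. fulvidraco. The hybrid mean was thus 10.03 times that of P. vachelli, 2.01 times that of P. fulvidraco and 3.34 times the linear mid-parent.

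The difference in protein 65-1 was 3.36 ± 0.25 on the log2 scale for the hybrid against P. vachelli (limma, adjusted p = 3.5e-05) and -2.33 ± 0.25 for P. vachelli against P. fulvidraco (limma, adjusted p = 9.74e-05). Both passed in each of 20 other ways of processing the data that gave a p. Against the mid-parent the hybrid was higher by 2.19 ± 0.22 (limma, adjusted p = 0.000583, with 8.04e-05 to 0.00913 across alternatives). It was above the linear mid-parent of the fit by 1.77, given without a p since no standard error was computed for that difference. That mid-parent was built from the parents' mean log2 levels, whereas the ratio given earlier used their mean TPM. Against P. fulvidraco the difference of 1.03 ± 0.25 passed (limma, adjusted p = 0.0208), and this call was the least stable of the 4. It was lost under quantile normalization, where the difference was 0.61 (limma, adjusted p = 0.304), and without P. fulvidraco 1 and 2, at 0.67 (limma, adjusted p = 0.26). Leaving out hybrid 2, P. fulvidraco 1 or P. fulvidraco 2 alone gave an adjusted p of 0.0593, 0.0589 and 0.0618 in limma, with 0.00661 to 0.304 across all 20.

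Protein 65-2 is the paralog row TRINITY_DN24872_c0_g1, and it had the opposite order. It was at 1956, 2651 and 2408 TPM in P. vachelli, 1150.3, 883 and 856 TPM in the hybrid, and 1272, 1017 and 1120 TPM in P. fulvidraco. All P. vachelli libraries were above all others, while the hybrid and P. fulvidraco overlapped. P. vachelli was higher than P. fulvidraco by 1.03 ± 0.16 on the log2 scale (limma, adjusted p = 0.000767), and the hybrid fell below P. vachelli with a difference of -1.28 ± 0.16 (limma, adjusted p = 0.000635). The hybrid did not pass against P. fulvidraco, at -0.24 ± 0.16 with a 95% interval of -0.61 to 0.12 (limma, adjusted p = 0.315). Against the mid-parent it was lower by -0.76 ± 0.14 (limma, adjusted p = 0.0123). That call was lost without hybrid 2 (limma, adjusted p = 0.0519) and without P. fulvidraco 1 and 2 (limma, adjusted p = 0.0561), with 0.00372 to 0.0561 across alternatives.

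The makeup of the hemopexin-like transcripts is described next, without a test. Of the TPM in the rows of both proteins, protein 65-1 held 52.2%, 53.4% and 41.6% in the P. vachelli libraries. It held 95.0%, 96.6% and 96.1% in the hybrid and 87.6%, 91.5% and 92.6% in P. fulvidraco. P. vachelli thus carried both paralogs at a near equal level, at means of 2300.1 ± 679 and 2338 ± 353 TPM. Summing both rows under hpx gave the hybrid 2.39 ± 0.17 over P. vachelli (limma, adjusted p = 3.52e-05) and 0.95 ± 0.17 over P. fulvidraco (limma, adjusted p = 0.00539). The call against P. fulvidraco held in 18 of 20 alternatives and was lost without P. fulvidraco 1 and 2, at 0.62. The sum does not show the opposite move of protein 65-2. The RefSeq gene table of P. vachelli lists hpxa and hpxb as separate genes. How the authors' quantification split reads between the paralogs is not given in the sources used here.

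**Figure D2:**
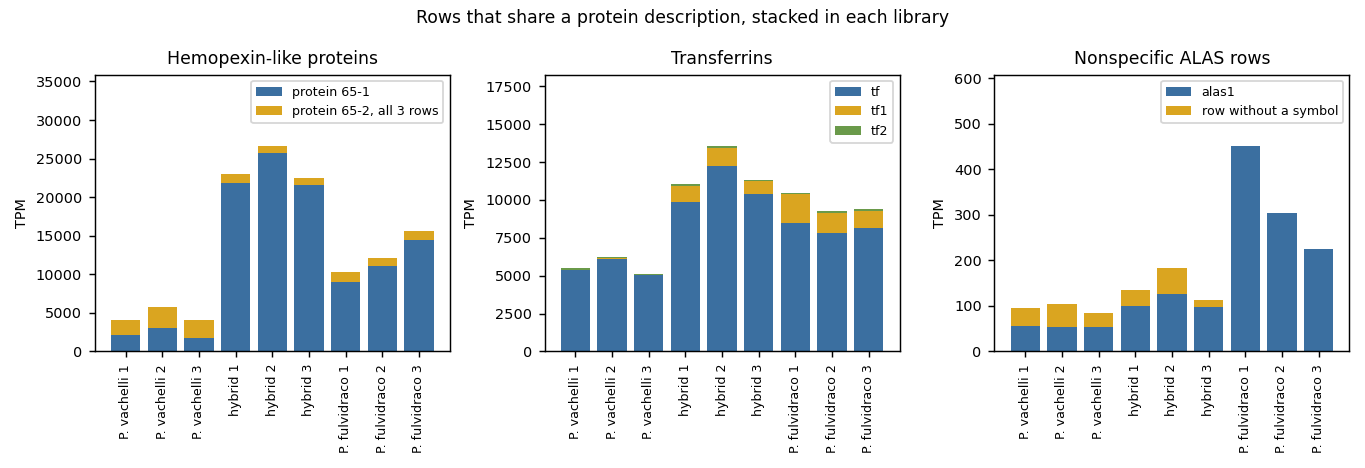
Stacked bars of TPM (y axis, from 0) in each of the 9 libraries for rows that share a protein description: the hemopexin-like proteins, the transferrins and the nonspecific 5-aminolevulinate synthases. Protein 65-1 makes up 95.0% to 96.6% of the hemopexin-like bar in the hybrid against 41.6% to 53.4% in P. vachelli.

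The unnamed row of protein 65-2, TRINITY_DN16003_c1_g1, held little RNA. It was at 1.83, 3.66 and 2.57 TPM in P. vachelli, 5.74, 8.96 and 8.84 TPM in the hybrid, and 5.37, 9.41 and 25.27 TPM in P. fulvidraco. P. vachelli lay below the others without overlap, and the highest value was that of P. fulvidraco 3 alone. The parents differed by -1.74 ± 0.46 on the log2 scale (limma, adjusted p = 0.012). The hybrid did not pass against P. vachelli (1.27 ± 0.46, limma adjusted p = 0.0692) or against P. fulvidraco (-0.47 ± 0.46, limma adjusted p = 0.51). The former passed in 6 of 20 alternatives, over which its adjusted p in limma ran from 0.0114 to 0.189. The fit without P. fulvidraco 1 and 2 was among those 6. Against the mid-parent the row was at 0.40 ± 0.40 (limma, adjusted p = 0.61), and at -0.16 without P. fulvidraco 1 and 2.

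Transferrin, the iron carrier of plasma, was the row tf, TRINITY_DN27604_c0_g1. Its level was 5382, 6128 and 5035 TPM in P. vachelli, 9873, 12260 and 10417 TPM in the hybrid (means 5515 ± 559 and 10849.9 ± 1251 TPM), and 8493, 7807 and 8132 TPM in P. fulvidraco (mean 8144 ± 343 TPM). All hybrid libraries were above all P. fulvidraco libraries, which were above all P. vachelli libraries. The hybrid mean was 1.97 times that of P. vachelli and 1.33 times that of P. fulvidraco. The hybrid was higher than P. vachelli by 0.97 ± 0.15 (limma over rows, adjusted p = 0.00172), and P. vachelli differed from P. fulvidraco by -0.57 ± 0.15 (limma, adjusted p = 0.0113). The latter was lost without P. fulvidraco 1 and 2 (limma, adjusted p = 0.0702, in a range of 0.00119 to 0.0702).

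Whether tf was above both parents depended on the fit. The hybrid exceeded P. fulvidraco by 0.41 ± 0.15 among rows, which did not pass (limma, adjusted p = 0.0846). The same values passed among symbol sums, where the tf sum is this single row and the spread is shared with other features than among rows (0.41 ± 0.10, limma adjusted p = 0.0205). Among symbol sums the call was lost without hybrid 2 (limma, adjusted p = 0.0623), without P. fulvidraco 2 (0.0649), without P. fulvidraco 1 and 2 (0.141) and with all transferrin rows summed (0.0709), in a range of 0.0125 to 0.141. Against the mid-parent tf was higher by 0.69 ± 0.13 among rows (limma, adjusted p = 0.0133) and by 0.69 ± 0.09 among symbol sums (limma, adjusted p = 0.00246). The row call was lost without hybrid 2 (limma, adjusted p = 0.0504, in a range of 0.000836 to 0.0504). It was also lost without P. fulvidraco 1 and 2, at 0.69. The symbol-sum call passed in all 20 alternatives that gave a p. Neither difference reached the minimum log2 difference of 1, so both calls were lost under that setting.

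Other rows described as transferrin bear on the total, and their single values were picked out after the data were seen. The row tf1 stood at 20.45, 18.39 and 19.26 TPM in P. vachelli, 1074, 1177 and 823 TPM in the hybrid, and 1902, 1345 and 1151 TPM in P. fulvidraco. It was lowest in P. vachelli without overlap, and its share of the transferrin TPM was 0.295% to 0.375% in P. vachelli, 7.26% to 9.72% in the hybrid and 12.2% to 18.1% in P. fulvidraco. The P. fulvidraco mean of tf1 was over 20 times its P. vachelli mean, a division seen in 13.4% of all rows tested. Whether tf1 holds the form of a single species was not tested. The row tf2, described as serotransferrin-2-like, was at 79.21 ± 1.63 TPM in P. vachelli, 97.28 ± 8.23 TPM in hybrid livers and 115 ± 26.6 TPM in P. fulvidraco. With the 3 rows summed the hybrid was 1.09 ± 0.11 over P. vachelli (limma, adjusted p = 0.000157), 0.30 ± 0.11 over P. fulvidraco (limma, adjusted p = 0.0709) and 0.69 ± 0.09 over the mid-parent (limma, adjusted p = 0.00272).

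The balance of protein 65-1 and transferrin is likewise given as a description. The ratio of protein 65-1 to tf was 0.397, 0.497 and 0.341 in P. vachelli, 2.22, 2.10 and 2.08 in the hybrid, and 1.06, 1.41 and 1.78 in P. fulvidraco. The 3 groups did not overlap, so tf was the more abundant row in every P. vachelli library and protein 65-1 in every other library.

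**Figure D3:**
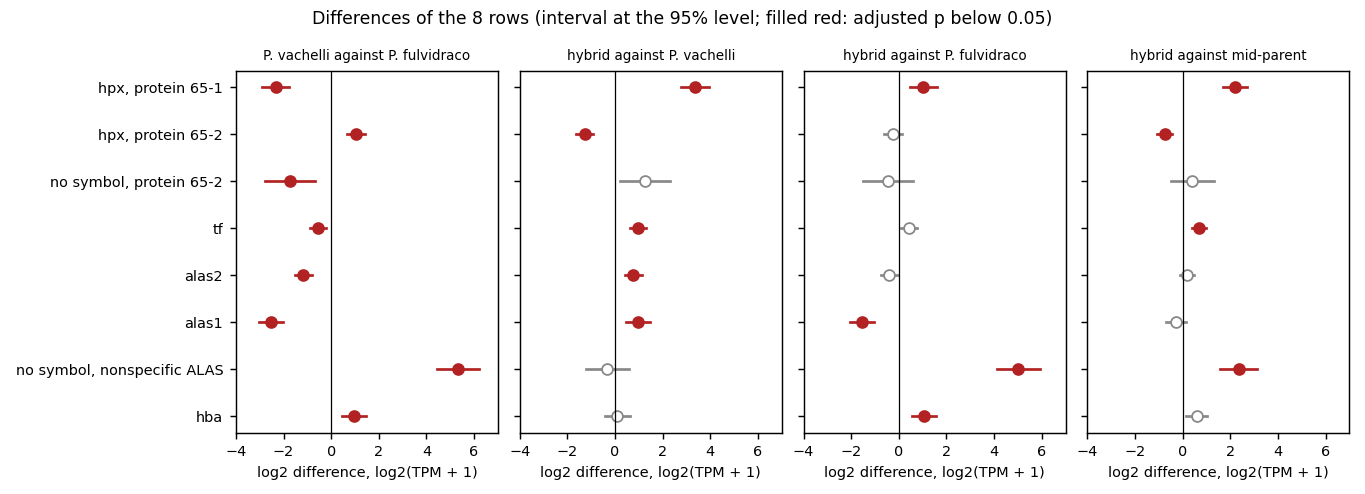
Difference on the log2(TPM + 1) scale (x axis) of the 8 rows in the 4 comparisons, with 95% intervals and filled red points where the adjusted p from limma was under 0.05. The hybrid lies above the mid-parent by 2.19 for protein 65-1 and by 0.69 for tf, and below it by 0.76 for protein 65-2; the unnamed synthase row is fitted against P. fulvidraco values of 0.

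Heme synthesis begins with 5-aminolevulinate synthase. The erythroid form alas2, TRINITY_DN24273_c2_g1, was at 13.44, 10.73 and 9.99 TPM in P. vachelli, 24.61, 18.15 and 17.80 TPM in the hybrid, and 26.99, 24.11 and 29.11 TPM in P. fulvidraco. P. vachelli lay below all other libraries, and hybrid 1 overlapped with P. fulvidraco. P. vachelli differed from P. fulvidraco by -1.17 ± 0.16 (limma, adjusted p = 0.000333), and the hybrid was higher than P. vachelli by 0.77 ± 0.16 (limma, adjusted p = 0.00679). The hybrid did not pass against P. fulvidraco, at -0.40 ± 0.16 with a 95% interval of -0.76 to -0.04 (limma, adjusted p = 0.105), nor against the mid-parent, at 0.18 ± 0.13 (limma, adjusted p = 0.467). Without hybrid 1 the difference from P. fulvidraco was -0.54 and passed (limma, adjusted p = 0.0368, in a range of 0.0368 to 0.241).

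The row alas1, TRINITY_DN24392_c1_g2, is the form used by most cells, the liver included. It stood at 56.22, 53.39 and 52.69 TPM in P. vachelli, 99.32, 127 and 98.54 TPM in the hybrid, and 451, 304 and 226 TPM in P. fulvidraco. The 3 groups did not overlap, and P. fulvidraco had the widest spread, with its lowest value in library 3. The mean of P. fulvidraco, 327 ± 114 TPM, was 6.04 times that of P. vachelli, 54.10 ± 1.87 TPM, and 3.02 times that of the hybrid, 108 ± 16.3 TPM. P. vachelli differed from P. fulvidraco by -2.52 ± 0.22 (limma, adjusted p = 3.05e-05) and the hybrid by -1.54 ± 0.22 (limma, adjusted p = 0.00209). The hybrid was higher than P. vachelli by 0.98 ± 0.22 (limma, adjusted p = 0.0111). Without P. fulvidraco 1 and 2 the first of these differences was -2.04 (limma, adjusted p = 0.000305) and the second -1.06 (limma, adjusted p = 0.0156). Against the mid-parent alas1 was at -0.28 ± 0.19 and did not pass (limma, adjusted p = 0.436). The difference from the linear mid-parent was -0.77. Judged with the standard error of the log2 mid-parent, it fell just under the threshold (limma, adjusted p = 0.049). That call is approximate and is not relied on.

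A second row with the description of nonspecific synthase, TRINITY_DN20258_c2_g1, had no symbol. It was at 39.82, 50.03 and 30.74 TPM in P. vachelli and 35.50, 55.62 and 15.45 TPM in the hybrid, and every P. fulvidraco library listed it at 0. Rows divided between the parents in this way were common: 6395 of the rows tested, 12.5%, had a mean of at least 1 TPM in P. vachelli and at least 20 times that in P. fulvidraco, and 6888, 13.4%, the reverse. No fold is given against the listed 0. The hybrid and P. vachelli overlapped, at -0.32 ± 0.39 (limma, adjusted p = 0.569). Its calls against P. fulvidraco and the mid-parent rest on the listed 0 and are not read.

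The unnamed row made up 42.2 ± 5.80% of the TPM in both nonspecific synthase rows in P. vachelli and 23.4 ± 8.81% in the hybrid. Its hybrid share was 26.3%, 30.4% and 13.6%, lowest in hybrid 3. Summing both rows, an alternative chosen after the data were seen, gave 94.30 ± 10.1 TPM in P. vachelli, 144 ± 35.2 TPM in hybrid livers and 327 ± 114 TPM in P. fulvidraco. On these sums P. vachelli and the hybrid still differed from P. fulvidraco, by -1.73 ± 0.25 (limma, adjusted p = 0.000455) and -1.15 ± 0.25 (limma, adjusted p = 0.0109). The hybrid no longer passed against P. vachelli, at 0.58 ± 0.25 (limma, adjusted p = 0.109), against 0.98 for alas1 alone. Whether both rows are forms of 1 gene was not tested.

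Alpha-globin, hba, TRINITY_DN18251_c0_g1, is an oxygen-carrying chain of the hemoglobin in red blood cells. It stood at 6719, 4994 and 4605 TPM in P. vachelli, 6709, 4946 and 5776 TPM in the hybrid, and 2249.8, 2606 and 3611 TPM in P. fulvidraco. All P. fulvidraco libraries were below all others, and P. vachelli and the hybrid overlapped. The means were 5439 ± 1126, 5810.0 ± 882 and 2822 ± 706 TPM, so P. vachelli had 1.93 times and the hybrid 2.06 times the level of P. fulvidraco. P. vachelli was higher than P. fulvidraco by 0.96 ± 0.22 (limma, adjusted p = 0.00629) and the hybrid by 1.06 ± 0.22 (limma, adjusted p = 0.0112). In whole liver RNA, fewer cells of a type and less RNA per cell cannot be told apart.

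Neither of these globin differences passed without the libraries P. fulvidraco 1 and 2. The difference was then 0.57 between the parents (limma, adjusted p = 0.138, in a range of 0.00271 to 0.138) and 0.67 for the hybrid against P. fulvidraco (limma, adjusted p = 0.189, in a range of 0.00364 to 0.189). For the hybrid against P. vachelli it was 0.10 ± 0.22 with a 95% interval of -0.40 to 0.61 (limma, adjusted p = 0.756). Against the mid-parent hba was at 0.58 ± 0.19 and did not pass (limma, adjusted p = 0.108). That difference passed under quantile normalization (limma, adjusted p = 0.0434) and with a filter of 5 TPM (limma, adjusted p = 0.0436), in a range of 0.0434 to 0.323.

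The partner chain hbb passed in 1 of the 4 comparisons. Its 2 rows summed to 2503, 1731 and 1648 TPM in P. vachelli, 2597, 2160.5 and 2089 TPM in the hybrid, and 1299, 1249 and 1704 TPM in P. fulvidraco. The hybrid was above P. fulvidraco by 0.69 ± 0.18 (limma, adjusted p = 0.0229), a call lost without P. fulvidraco 1 and 2, at 0.41 (limma, adjusted p = 0.317), and the parents, which overlapped, did not pass at 0.46 ± 0.18 (limma, adjusted p = 0.0625). The ratio of hba to hbb was 2.68, 2.89 and 2.79 in P. vachelli, 2.58, 2.29 and 2.76 in the hybrid, and 1.73, 2.09 and 2.12 in P. fulvidraco. Whether this ratio differed between lines was not tested.

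The globin and the erythroid synthase thus had different orders, although both belong to red blood cells. The ratio of hba to alas2 was 500, 465 and 461 in P. vachelli, 273, 272 and 324 in the hybrid, and 83.4, 108 and 124 in P. fulvidraco. Erythrocyte markers other than hba, hbb and alas2, of which 8 were measured, summed to 234, 201 and 186 TPM in P. vachelli, 253, 215 and 227 TPM in the hybrid, and 228, 291 and 351 TPM in P. fulvidraco. The summed level was thus not lowest in the line with the lowest globin level, though the libraries of P. vachelli and P. fulvidraco overlapped. Most of the sum came from cahz and the transferrin receptor tfrc, which is also in the iron list below. Tfrc was at 95.75 to 116.36 TPM in P. vachelli and 78.53 to 144.85 TPM in P. fulvidraco. Of all 11 measured erythrocyte markers, 1 was higher and 4 were lower in P. vachelli than in P. fulvidraco, where 48.6% of all symbols passed. In the hybrid 4 were higher and 0 lower relative to P. vachelli, with 30.5% of all symbols passing. Against P. fulvidraco 2 were higher and 0 lower, with 24.6% passing, and these were hba and hbb. Both globins lost the call without P. fulvidraco 1 and 2, and tfrc passed instead as lower in the hybrid, against 8.91% of all symbols. In that fit 0 markers were higher and 4 lower between the parents, with 33.1% of all symbols passing. The part of blood content in the values of hba and alas2 was not tested.

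Among those markers cahz, described as a carbonic anhydrase, was at 69.66 ± 9.54 TPM in P. vachelli, 108 ± 15.6 TPM in hybrid livers and 130.1 ± 22.4 TPM in P. fulvidraco. Its difference between the parents was -0.89 ± 0.16 (limma, adjusted p = 0.0015). The ammonium transporter rhag, at 7.37 ± 0.686 against 11.24 ± 1.18 TPM, and the transcription factor tal1, at 2.54 ± 0.728 against 5.71 ± 1.43 TPM, were also lower in P. vachelli than in P. fulvidraco (limma, adjusted p = 0.00387 and 0.0126). The erythroid factor gata1 did not pass in any of the 4 comparisons. It stood at 5.61, 7.13 and 4.35 TPM in P. vachelli and 4.71, 6.26 and 6.98 TPM in P. fulvidraco.

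**Figure D4:**
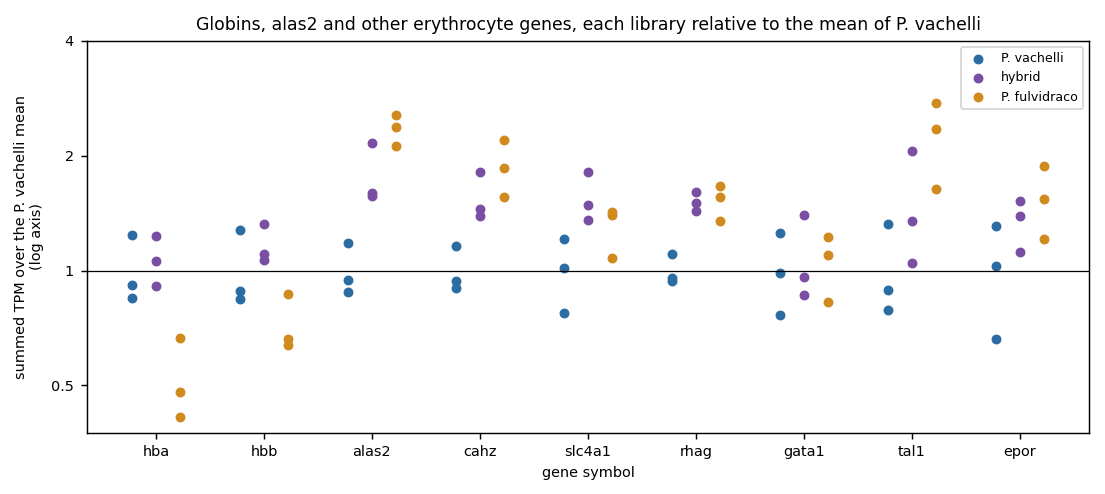
Summed TPM of globins, alas2 and other erythrocyte genes in each library, divided by the mean of P. vachelli for that gene (y axis, log scale), with 1 point per library and colours for the 3 lines. The P. fulvidraco points of hba lie below 1, while those of alas2, cahz and rhag lie above 1.

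The wider pathway was read from 5 lists of 90 genes, of which 60 were measured, on symbol sums. The share of all symbols that passed was 48.6% between the parents, 30.5% in the hybrid against P. vachelli, 24.6% against P. fulvidraco and 10.8% against the mid-parent, and 33.1%, 30.3%, 8.91% and 5.59% without P. fulvidraco 1 and 2. Over all symbols the median log2 difference was -0.01 between parental lines, -0.05 in the hybrid against P. vachelli and -0.05 against P. fulvidraco. Of 9 other heme synthesis genes, 2 were higher and 2 lower in P. vachelli than in P. fulvidraco, with a list median of -0.13 and 48.6% of all symbols passing. In the hybrid 2 were higher and 0 lower relative to P. vachelli, with a median of 0.12 and 30.5% of all symbols passing. Those that passed between the parents were alad and uros, higher in P. vachelli, and fech and tspo, lower. The uros call, at 0.48 (limma, adjusted p = 0.016), was lost without P. fulvidraco 1 and 2, at 0.25. Alad, the enzyme after the synthase, had the higher level in P. vachelli, 8.49 ± 0.503 TPM compared with 4.93 ± 0.132 TPM (0.68 ± 0.11, limma adjusted p = 0.000982). Fech, which puts iron into the ring in the last step, was lower, at 2.71 ± 0.210 against 4.92 ± 0.516 TPM (-0.67 ± 0.12, limma adjusted p = 0.00136). The mitochondrial membrane protein tspo was lower too, at 8.59 ± 1.34 against 23.46 ± 2.70 TPM (-1.35 ± 0.14, limma adjusted p = 5.92e-05). In the hybrid fech, at 3.93 ± 0.160 TPM, and tspo, at 17.96 ± 1.84 TPM, were higher than in P. vachelli (limma, adjusted p = 0.0269 and 0.000987). No gene of this list passed against the mid-parent.

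Of 13 genes of heme breakdown and heme transport, 5 were higher and 4 lower in P. vachelli than in P. fulvidraco, with a median of 0.33 and 48.6% of all symbols passing. In the hybrid 4 were higher and 4 lower relative to P. vachelli, with a median of -0.24 and 30.5% of all symbols passing. Heme oxygenases open the ring and release its iron. Hmox2 was at 28.01, 26.38 and 25.89 TPM in P. vachelli, 11.45, 11.87 and 14.04 TPM in the hybrid, and 3.82, 3.52 and 4.44 TPM in P. fulvidraco. The groups did not overlap, and the hybrid lay between the parents, at 1.45 ± 0.12 above P. fulvidraco (limma, adjusted p = 9.84e-05) and -1.05 ± 0.12 against P. vachelli (limma, adjusted p = 0.000297). Flvcr2, a membrane transporter of the same family as the heme exporter FLVCR1, was lowest in P. vachelli, at 25.77 ± 6.30 TPM in P. vachelli, 99.26 ± 19.98 TPM in hybrid livers and 111 ± 12.7 TPM in P. fulvidraco. It was higher in the hybrid than in P. vachelli by 1.91 ± 0.20 (limma, adjusted p = 0.000198) and than the mid-parent by 0.87 ± 0.17 (limma, adjusted p = 0.0151). Pgrmc1, a heme-binding membrane protein, was lower in the hybrid than the mid-parent, at 254 ± 1.57 TPM against 435 ± 24.2 and 290 ± 39.5 TPM in P. vachelli and P. fulvidraco (-0.48 ± 0.09, limma adjusted p = 0.0109).

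Of 18 genes of iron uptake, storage and export, 7 were higher and 4 lower in P. vachelli than in P. fulvidraco, with a median of 0.04 and 48.6% of all symbols passing. Relative to P. vachelli the hybrid had 3 higher and 5 lower, with a median of -0.28 and 30.5% of all symbols passing. Without P. fulvidraco 1 and 2 the number passing between the parents was 7 in place of 11, while the share of all symbols was 33.1% in place of 48.6%. Ncoa4, which delivers ferritin to lysosomes for iron release, was at 343 ± 79.3 TPM in P. vachelli, 174 ± 39.5 TPM in hybrid livers and 45.57 ± 6.38 TPM in P. fulvidraco. Its difference was 2.87 ± 0.21 between the parents (limma, adjusted p = 8.91e-06) and 1.90 ± 0.21 for the hybrid against P. fulvidraco (limma, adjusted p = 0.000565). Aco1, whose protein is iron regulatory protein 1 when it lacks its iron-sulfur cluster, was higher in P. vachelli than in the hybrid, at 82.72 ± 11.2 against 42.16 ± 1.16 TPM (limma, adjusted p = 0.000543). The transferrin receptors tfrc and tfr2 bind the product of tf. Tfrc passed in none of the 4 comparisons, at 106 ± 10.3, 80.27 ± 7.22 and 115 ± 33.6 TPM in P. vachelli, the hybrid and P. fulvidraco. It passed without P. fulvidraco 1 and 2 as lower in the hybrid, at -0.40 against P. vachelli, -0.85 against P. fulvidraco and -0.62 against the mid-parent (limma, adjusted p = 0.027, 0.019 and 0.0215). Tfr2 was at 49.75 ± 5.70, 50.70 ± 4.89 and 37.76 ± 3.96 TPM. The hybrid was above P. fulvidraco by 0.42 ± 0.12 (limma, adjusted p = 0.0362), a call lost without P. fulvidraco 1 and 2, at 0.31. Another row of that description, without a symbol and picked out after its values were seen, was at 24.19 ± 4.13, 16.92 ± 2.66 and 15.74 ± 1.24 TPM. There the hybrid was below P. vachelli at -0.49 ± 0.15 (limma, adjusted p = 0.0394), a call lost without P. fulvidraco 1 and 2. It did not pass against P. fulvidraco (0.09 ± 0.15, limma adjusted p = 0.709).

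Hepcidin is the liver hormone that lowers iron export to plasma. The symbol hfe on this list is left out, since its rows are described as histocompatibility proteins. Of 11 other measured genes that act on its control, 4 were higher and 1 lower in P. vachelli than in P. fulvidraco, with a median of 0.27 and 48.6% of all symbols passing. The hybrid had 0 higher and 2 lower relative to P. vachelli, with a median of -0.23 and 30.5% of all symbols passing. Hfe2, whose protein hemojuvelin is a BMP co-receptor, was higher in the hybrid than the mid-parent by 0.60 ± 0.09 (limma, adjusted p = 0.00517), at 32.61 ± 3.49 TPM against 29.40 ± 1.04 and 15.15 ± 1.24 TPM in P. vachelli and P. fulvidraco. Tmprss6, a protease that acts on hemojuvelin, was at 57.84 ± 5.01, 46.24 ± 1.81 and 27.31 ± 3.77 TPM in P. vachelli, the hybrid and P. fulvidraco, and both P. vachelli and the hybrid were higher than P. fulvidraco (limma, adjusted p = 8.45e-05 and 0.00249).

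Of 5 measured globin and hemoglobin-handling genes other than hba, 2 were higher and 1 lower in P. vachelli than in P. fulvidraco, with a median of 0.46 and 48.6% of all symbols passing. In the hybrid 1 was higher and 0 lower than in P. vachelli, with 30.5% of all symbols passing. That gene was cd163, a scavenger receptor that takes up hemoglobin bound to haptoglobin in mammals, at 5.30 ± 0.679 TPM in P. vachelli, 501 ± 111 TPM in hybrid livers and 837 ± 62.4 TPM in P. fulvidraco. Whether its assembled sequence holds the form of a single species was not tested. Counting hba, 4 of the 6 genes passed between the parents and 3 in the hybrid against P. fulvidraco, with 48.6% and 24.6% of all symbols passing. These counts were 1 and 0 without P. fulvidraco 1 and 2, with 33.1% and 8.91% of all symbols passing. Against the mid-parent 0 genes of heme synthesis passed, 2 of heme breakdown and transport and 1 of each other list, with 10.8% of all symbols passing.

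**Figure D5:**
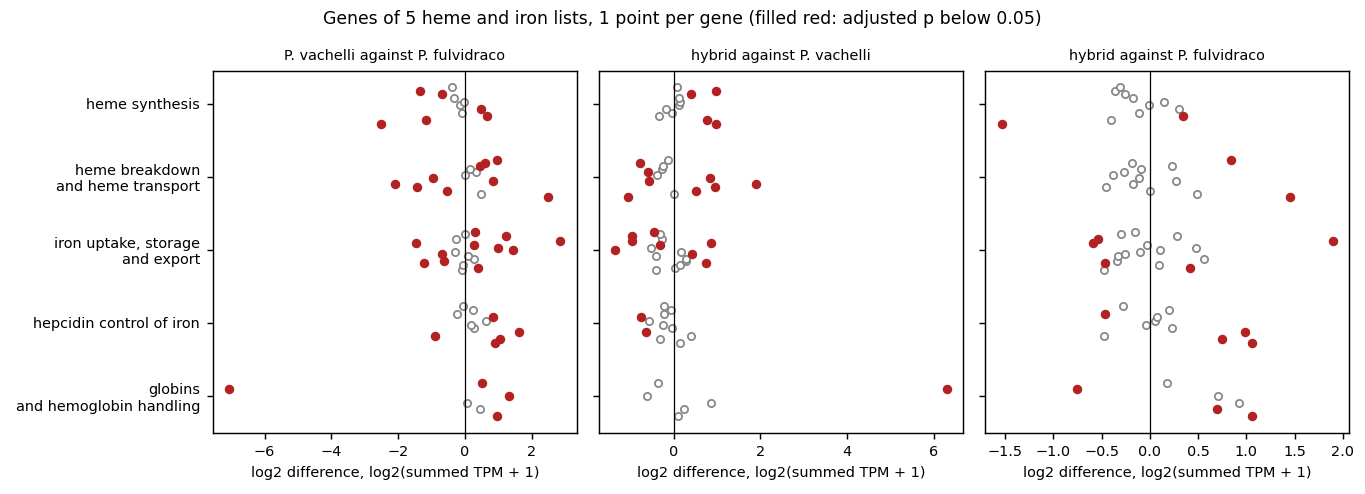
Difference on the log2(summed TPM + 1) scale (x axis) of the measured genes of 5 heme and iron lists other than hfe, 1 point per gene, with filled red points where the adjusted p from limma was under 0.05. Points of the lists lie on both sides of 0 between the parents, and in the hybrid against P. fulvidraco 2, 2, 5, 4 and 3 genes pass from the top list to the bottom one, where 24.6% of all symbols pass.

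Some genes of the pathway carry no symbol of the lists and were found by description after their values were seen. Ferritin stores iron, and the row described as ferritin middle subunit, a form of fish and frogs, was at 4511, 4216 and 4411 TPM in P. vachelli, 1188, 1316 and 1096 TPM in the hybrid, and 1148, 1155 and 1408 TPM in P. fulvidraco. P. vachelli lay above all others, by 1.83 ± 0.12 over P. fulvidraco (limma, adjusted p = 4.71e-06), and the hybrid was below the mid-parent at -0.96 ± 0.10 (limma, adjusted p = 0.0009). The row described as ferritin heavy chain A was lowest in P. vachelli, at 408 ± 15.8, 670 ± 106 and 687 ± 57.5 TPM in P. vachelli, the hybrid and P. fulvidraco. It was lower in P. vachelli than in P. fulvidraco at -0.75 ± 0.12 (limma, adjusted p = 0.00101), and the hybrid was above P. vachelli by 0.70 ± 0.12 (limma, adjusted p = 0.00331). The hybrid and P. fulvidraco overlapped. A row described as heme oxygenase was at 102 ± 18.8, 44.40 ± 14.3 and 15.43 ± 2.60 TPM, the same order as hmox2, and was higher in P. vachelli than in P. fulvidraco by 2.65 ± 0.25 (limma, adjusted p = 4.89e-05). The row described as heme oxygenase 1, the inducible form in mammals, was at 2.14, 2.63 and 2.09 TPM in P. vachelli, 7.55, 24.61 and 8.81 TPM in the hybrid, and 4.71, 2.18 and 3.11 TPM in P. fulvidraco. It passed as higher in the hybrid than in P. vachelli (limma, adjusted p = 0.00652) and P. fulvidraco (limma, adjusted p = 0.0217), the latter lost without P. fulvidraco 1 and 2 (limma, adjusted p = 0.155). In that row hybrid 2 stood far above the other hybrid libraries. A more abundant row of the same symbol, hmox, is described as heme oxygenase-like. It was at 79.72 ± 15.4, 25.66 ± 10.7 and 10.55 ± 1.48 TPM in P. vachelli, the hybrid and P. fulvidraco. There the hybrid was below P. vachelli at -1.68 ± 0.31 (limma, adjusted p = 0.00421). It was above P. fulvidraco by 1.12 ± 0.31 (limma, adjusted p = 0.0331), a call lost without P. fulvidraco 1 and 2, at 1.065.

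Symbols with a pattern like that of a gene of the set were sought among 5403 symbols at or above the median level, by Pearson's r of log2(summed TPM + 1) over the 9 libraries. With 3 lines the points share the line differences, so r is a description. For hpx the closest were ccng2, a cyclin G2 (r = 0.967), serhl (r = 0.965) and ido2, a tryptophan-degrading dioxygenase (r = 0.962). For tf they were sult1d1, described as a sulfotransferase (r = 0.967), ip6k2 (r = 0.955) and again ido2 (r = 0.950). For alas2 they were atp1b2, a subunit of the sodium pump (r = 0.990), zranb1b (r = 0.984) and ppip5k2 (r = 0.975). For hba they were xdh, the xanthine dehydrogenase (r = 0.979), arrdc3 (r = 0.970) and znf429 (r = 0.969). Ido2 was at 6.90 ± 2.17 TPM in P. vachelli, 41.25 ± 7.06 TPM in hybrid livers and 23.76 ± 2.19 TPM in P. fulvidraco, highest in the hybrid as hpx and tf were. Arrdc3 was at 75.62 ± 19.5, 84.32 ± 12.8 and 29.98 ± 5.39 TPM, lowest in P. fulvidraco as hba was. Such shared orders follow from the choice by r and are no separate result.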

How the data were processed

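The labels give 9 liver poly(A) libraries, 3 for each line. The authors deposited TPM for each assembled gene, and every library sums to 999999.5 to 1000001.6 TPM. Reads were handled with cutadapt and FastQC, per the submitters' processing notes. Row identifiers have the form that Trinity, an assembler, writes, per the file headers. The quantifier is not given in the sources used here. Paralogs may share reads. Depth is unknown, so no counting interval is given. A label's extraction text speaks of an adipose type, and the tissue label liver was followed. Columns were matched by library title, with 0 columns left without a sample.

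Rows, and sums of rows with the same symbol, with at least 1 TPM in at least 3 libraries were tested with limma 3.58.1 (R 4.3.3) with an intensity trend on log2(TPM + 1). A single two-sided fit of 9 libraries had 6 residual degrees of freedom and Benjamini-Hochberg adjustment at 0.05 over 51225 rows or 10815 symbols. The design allowed for counts or normalized values, and the latter applied. On simulated data of the hybrid against P. vachelli the symbol fit, over 10610 genes, called 74% of genes changed by 1 and 96% of those changed by 2 on the log2 scale. The row fit, over 45442 genes, called 40% and 67%. Each simulation changed only 200 genes, all above the median level, whereas 30.5% of symbols and 30.0% of rows passed in the data. The simulated shares are therefore not the power of the real comparison. Within a line libraries correlated at 0.851 to 0.937, so none was taken as a repeat deposit. The genes and lists were chosen with earlier results of these data known. Named genes were all rows of the set, up to 4 genes per list and comparison with the smallest p, others where a result turns on them, and the 3 symbols closest to hpx, tf, alas2 and hba. Other ways of processing were median-ratio scaling, quantile normalization, a fit with no trend, a filter at 5 TPM or none, pseudocounts of 0.1 and 5, a replicate block, each library left out, P. fulvidraco 1 and 2 left out, the compared groups alone, a minimum log2 difference of 1, a linear mid-parent and sums by description. For the linear mid-parent of the fit, the parents' mean log2 levels were taken back to the linear scale and averaged. It was judged with the standard error of the log2 mid-parent, so its calls are approximate. These calls are part of the counts and ranges over alternatives. A difference under 1 on the log2 scale cannot pass the minimum log2 difference of 1. That setting gave it no adjusted p, so the ranges, numbers of alternatives and lost calls named for single rows leave the setting out. Leaving the unnamed synthase row, hfe, prss2 and cd163 out of counts or sums was chosen after the data were seen. Symbol matching to the RefSeq table of P. vachelli served for names only.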

Additional observations from a re-analysis of the deposited data

How the results depend on the processing

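Of the alternative values for the 8 rows and 5 symbols, 1007 kept direction and side of the threshold, 37 lost the call, 17 gained it and 11 changed sign; the causes were not tested. The sign changed for hpx when protein 65-2 stood alone as the sum of its 3 rows, which was chosen after the data were seen. That sum gave 1.02 between the parents, -1.27 and -0.25 for the hybrid against P. vachelli and P. fulvidraco, and -0.76 against the mid-parent. The sign also changed for the unnamed protein 65-2 row against the mid-parent without P. fulvidraco 1 and 2 (-0.16). With 1 library left out, the hybrid against P. vachelli ran from -0.0069 to 0.27 for hba (rows and symbol sums alike) and from -0.72 to 0.17 for the unnamed synthase row, and the unnamed protein 65-2 row against P. fulvidraco from -0.93 to 0.10.

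Rows passing numbered 27855 between the parents, 15388 in the hybrid against P. vachelli, 11154 against P. fulvidraco and 4358 against the mid-parent, and symbols 5251, 3302, 2664 and 1169. A filter of 5 TPM gave 10618, 7735 and 6506 rows in the first 3 comparisons, since fewer rows were tested. Against the mid-parent a pseudocount of 0.1 gave 7074 rows and 5 gave 2880. Without P. fulvidraco 1 and 2 there were 16960 rows between the parents, 2884 against P. fulvidraco and 2199 against the mid-parent, and 950 and 596 symbols in the last 2. The compared groups alone gave 7402 rows in the hybrid against P. fulvidraco. A minimum difference of 1 gave 10014, 6873 and 2375 rows in the hybrid comparisons and 2186, 954, 687 and 232 symbols in the 4. With 1 library left out, the hybrid comparisons gave 9043 to 15265, 6506 to 10527 and 2534 to 3910 rows, and 2184 to 3384, 1653 to 2545 and 450 to 1225 symbols. Replicate numbers did not pair the libraries: deviations of same-numbered libraries correlated at -0.112 to 0.014, and not every library correlated best with its own number. A replicate block gave 27204, 14006, 9430 and 3138 rows and 5087, 3027, 2285 and 790 symbols. Depth is unknown, so no detection limit can be given for low rows, and 3 libraries per line limit the precision.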

Other observations

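A row described as haptoglobin-like, the plasma protein that binds free hemoglobin in mammals, carries a different symbol, Masp2, and was picked out after its values were seen. It stood at 526, 606 and 657 TPM in P. vachelli, 543, 362 and 186 TPM in the hybrid, and 23.90, 257 and 8.37 TPM in P. fulvidraco. P. vachelli was above P. fulvidraco without overlap, at 3.92 ± 1.02 on the log2 scale (limma, adjusted p = 0.0107). The hybrid and P. fulvidraco overlapped and did not pass (limma, adjusted p = 0.0627), but passed without P. fulvidraco 1 and 2 (limma, adjusted p = 0.00352), and P. fulvidraco 2 stood far above the other libraries of its line. A row described as hepcidin was low in all 9 libraries, between 0.07 and 1.70 TPM. A minor row described as hemoglobin subunit alpha-like was between 9.22 and 16.74 TPM in P. vachelli, 18.83 ± 2.59 TPM in hybrid livers and 7.03 ± 2.52 TPM in P. fulvidraco, and the hybrid was above P. fulvidraco by 1.34 ± 0.26 (limma, adjusted p = 0.00829), a call lost without P. fulvidraco 1 and 2 (limma, adjusted p = 0.171). Markers of pancreatic acinar cells, of which 11 were measured, summed to 2332 to 4275 TPM in P. vachelli, 6829 to 9209 TPM in the hybrid and 2778 to 7001 TPM in P. fulvidraco, so the hybrid did not overlap with P. vachelli. Without prss2, whose row is described as complement C1s subcomponent-like, the sums were 1792 to 3701, 6604 to 8815 and 2778 to 7001 TPM in the same order. Macrophage markers, of which 11 were measured, summed to 384 to 481, 878 to 1071 and 1144 to 1320 TPM. Without cd163 the other 10 summed to 378 to 476, 425 to 509 and 375 to 448 TPM, so cd163 carried the difference and the lines then overlapped. The part of other cell types in the levels of hpx and tf was not tested.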
